A study of Mus musculus with 16 samples.

Results

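The aminoacyl-tRNA synthetase genes examined here are 34 of the 48709 genes in the count table, taken by matching their gene symbols to a list of the nuclear genes that encode these enzymes. Of the 34 genes, 14 encode enzymes that charge tRNA only in mitochondria and 20 encode enzymes of the cytosol. All 34 passed the filter on low counts in every comparison. RNA was sequenced from cerebral cortex of C57BL/6 mice, the only strain in the study, with no genetic change or treatment given in the labels. Synaptosomes (SYN) are pinched-off nerve terminals, with attached postsynaptic material, that are enriched from homogenised brain. They were prepared at 3 ages, 3 weeks, then 5 months, then 19 months, and total homogenate (TH), which was set aside before the enrichment, came from mice of 5 months. Each of the 4 groups had 4 libraries, described as biological replicates for the SYN ages. A synaptosome fraction is not pure neuronal material, and neither the sex of the mice nor any pooling of cortices is given in the sources used here.

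Aminoacyl-tRNA synthetases join each amino acid to its own tRNA, the step that sets which amino acid a codon receives during translation. Most amino acids have a cytosolic enzyme and a separate mitochondrial enzyme, both encoded in the nucleus, and the mitochondrial enzyme is imported to serve protein synthesis from the mitochondrial genome. Several cytosolic enzymes sit in a multi-synthetase complex with scaffold proteins, and in people variants in genes such as GARS, YARS, AARS, HARS and WARS cause inherited neuropathies of peripheral axons. Gars and Kars each encode the cytosolic and the mitochondrial enzyme from a single gene, so they were counted as cytosolic and set aside in an alternative. Tarsl2 ends in 2 but encodes a cytosolic threonyl enzyme beside Tars, so it was counted as cytosolic, and results that change when it is counted by its symbol are given.

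Many cytosolic synthetase genes are known targets of ATF4, a transcription factor of the amino acid and stress response that binds sites holding TGATGNAA. A RefSeq promoter window, 250 bases before to 50 after the start on GRCm38.p6, was matched for 25 of the 34 genes. The motif TGATGNAA, searched on both strands, lay in 5 of these 25 genes (20%), namely Aars, Gars, Iars, Tars and Yars, against 4.51% of the 27025 genes with a window. All 5 were among 13 cytosolic genes with a window, and 0 of 12 mitochondrial genes held it. The 5 genes were also 5 of the 7 genes with a window on a list of 10 synthetase genes known as ATF4 targets, a list which was drawn from genes known to respond to this factor, so the match is no independent observation. The matches before the start of Gars and Tars are shown because these genes recur in the results below, and because they show which letters were counted. Capitals mark the match, which in both is on the strand opposite to the gene, and each line reads 5′ to 3′ on the strand of the gene. The centre of the match lies 26 bases before the start in Gars and 11 in Tars.
Gars, chr6:55037960-55037989, plus strand: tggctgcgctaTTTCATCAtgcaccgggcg
Tars, chr15:11399659-11399684, minus strand: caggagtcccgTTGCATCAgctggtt
A match is a description of these letters and not a measured binding site.

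Depth ran from 10.6 to 21.7 megacounts per library, of which the synthetase genes took 7059 to 14058 counts in SYN libraries and 15304 to 24246 in TH libraries. Mitochondrial ribosomal RNA made up 32.9% to 52.3% of counts in the 12 SYN libraries and 17.6% to 22.0% in TH. Among the 19 months libraries, replicate 1 stood apart at 52.3%, with the others at 32.9% to 33.6%. Replicate 4 of the 5 months SYN group stood apart in nuclear long noncoding RNA, with a summed level of 6618 CPM (counts per megacount, scaled to library size) against 1409 to 2034 in the other 3. As a check of the labels, 10 neuronal synapse genes summed to 11839 to 13925 CPM in 5 months SYN and 4688 to 5558 CPM in TH, and no gene of any of the 7 marker lists was at 0 throughout a group. RNA of other cells was present in SYN: 8 astrocyte markers summed to 6581 to 7625 CPM in 5 months SYN and 2873 to 3440 CPM in TH.

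Per kilobase of exon, with the exonic lengths listed beside the counts, the order of levels was similar at its top in every group. Nars, the cytosolic asparaginyl enzyme, was highest, at 26.7 ± 2.00 CPM per kb at 3 weeks, 28.9 ± 2.68 at 5 months and 26.2 ± 1.00 at 19 months in SYN, and 31.4 ± 1.01 in 5 months TH (SD, n = 4 each). Gars and Hars, the glycyl and histidyl enzymes, followed in all 4 groups. In 5 months SYN, Gars stood at 12.6 ± 0.452 and Hars at 10.3 ± 1.57 CPM per kb, whereas Hars and its next neighbour Sars (9.78 ± 1.14), the seryl enzyme, were within their spread. Cars2, the mitochondrial cysteinyl enzyme, was lowest in every group, at 0.303 ± 0.130 CPM per kb in 5 months SYN and 0.639 ± 0.0461 in 5 months TH. It rested on as few as 12 counts in a library, so its values carry a large counting error.

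The first comparison asked how the synaptic fraction differs from the whole cortex at 5 months. Of the 34 synthetase genes, 14 fell in 5 months SYN relative to 5 months TH and 0 rose. The genes that fell were 9 of 20 cytosolic and 5 of 14 mitochondrial genes, led by Tars2, Hars2, Rars2 and Cars2 among the mitochondrial enzymes and by Farsa, Farsb, Cars and Yars among the cytosolic ones. Calls are an adjusted p under 0.05 in edgeR's quasi-likelihood test with Benjamini-Hochberg adjustment over all 17374 genes tested. By that rule 25.6% of all genes were lower and 24.5% higher in SYN, against 41.2% lower and 0 higher among the synthetase genes. Of the synthetase genes without a call, 1 was higher at an unadjusted p under 0.05. DESeq2 called 16 lower and 0 higher, with 0 higher at an unadjusted p under 0.05. Of all 22596 genes with an adjusted p in DESeq2, 5660 were called lower and 3914 higher. In 13 of the 34 genes all 4 SYN libraries lay below all 4 TH libraries, which 25.7% of all genes did, and in 0 genes all SYN libraries lay above, which 22.2% of all genes did. The median log2 fold change was -0.19 over the synthetase genes and -0.05 over all genes tested, and with upper-quartile scaling these were -0.33 and -0.19. In such bulk samples, fewer cells or terminals of a type and less RNA in each cannot be told apart.

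**Figure D1:**
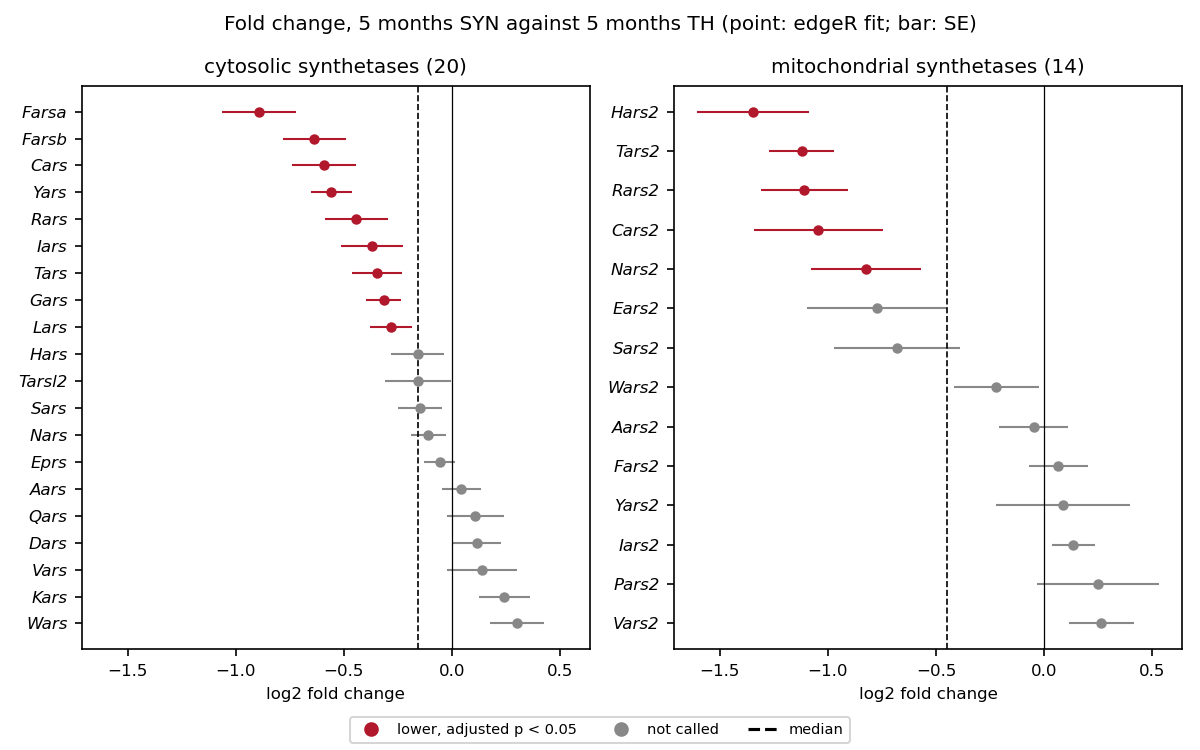
Log2 fold change (x axis) of each of the 34 synthetase genes in 5 months SYN against 5 months TH, with cytosolic genes at left and mitochondrial genes at right; points are edgeR estimates, bars are SE, red marks an adjusted p under 0.05 and the dashed line is the median of each panel (-0.16 cytosolic, -0.45 mitochondrial). All 14 coloured points lie left of 0, 9 in the cytosolic and 5 in the mitochondrial panel.

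Among mitochondrial enzymes, the largest of the called differences were those of Hars2 and Tars2. Tars2, the mitochondrial threonyl enzyme on chr3:95739976-95760206, had 7.06, 6.51, 9.22 and 9.26 CPM in SYN, against 15.7, 18.1, 18.1 and 18.4 CPM in TH. Every SYN library was well below every TH library. The log2 fold change of Tars2 was -1.12 (SE 0.151, edgeR adjusted p = 2.28e-05). Rars2, the mitochondrial arginyl enzyme on chr4:34614957-34660167, had 5.57, 3.44, 4.32 and 6.57 CPM in SYN, against 9.61, 10.4, 11.1 and 12.4 CPM in TH. These groups did not overlap either, and the log2 fold change of Rars2 was -1.11 (SE 0.202, edgeR adjusted p = 0.000342). Hars2, the mitochondrial histidyl enzyme, averaged 3.92 ± 1.62 CPM in SYN and 10.0 ± 0.333 CPM in TH (SD, n = 4 each), with a log2 fold change of -1.35 (SE 0.258, edgeR adjusted p = 0.00054). SYN replicate 2 had the lowest Hars2 level, 1.72 CPM, and the highest SYN library reached 5.57 CPM. Hars2 lies head to head with Hars and shares 195 exonic bases with it on the opposite strand (4.56% of its exonic length), and the strand setting of the counting is not given in the sources used here, so reads in that stretch cannot be assigned with certainty. Cars2 fell by 1.04 and Nars2, the mitochondrial asparaginyl enzyme, fell by 0.82 on the log2 scale (edgeR adjusted p = 0.00868 and 0.014).

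The other 9 mitochondrial genes had no call, and their log2 fold changes ran from -0.77 in Ears2 to 0.26 in Vars2. Ears2, the mitochondrial glutamyl enzyme, and Sars2, the mitochondrial seryl enzyme, were at -0.77 and -0.68 (edgeR adjusted p = 0.0596 and 0.0654), and their intervals, -1.41 to -0.14 and -1.25 to -0.11, include changes as large as those called in other genes. DESeq2 called both lower (adjusted p = 0.0337 and 0.0393), as did edgeR with upper-quartile scaling (adjusted p = 0.029 and 0.0285). Iars2, the isoleucyl enzyme, averaged 30.6 ± 3.40 CPM in SYN and 28.0 ± 0.818 CPM in TH, but 24.2% of its exonic bases are shared with genes on the opposite strand. Aars2, Fars2 and Yars2, for alanine, phenylalanine and tyrosine, had log2 fold changes between -0.05 and 0.09 with no call.

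**Figure D2:**
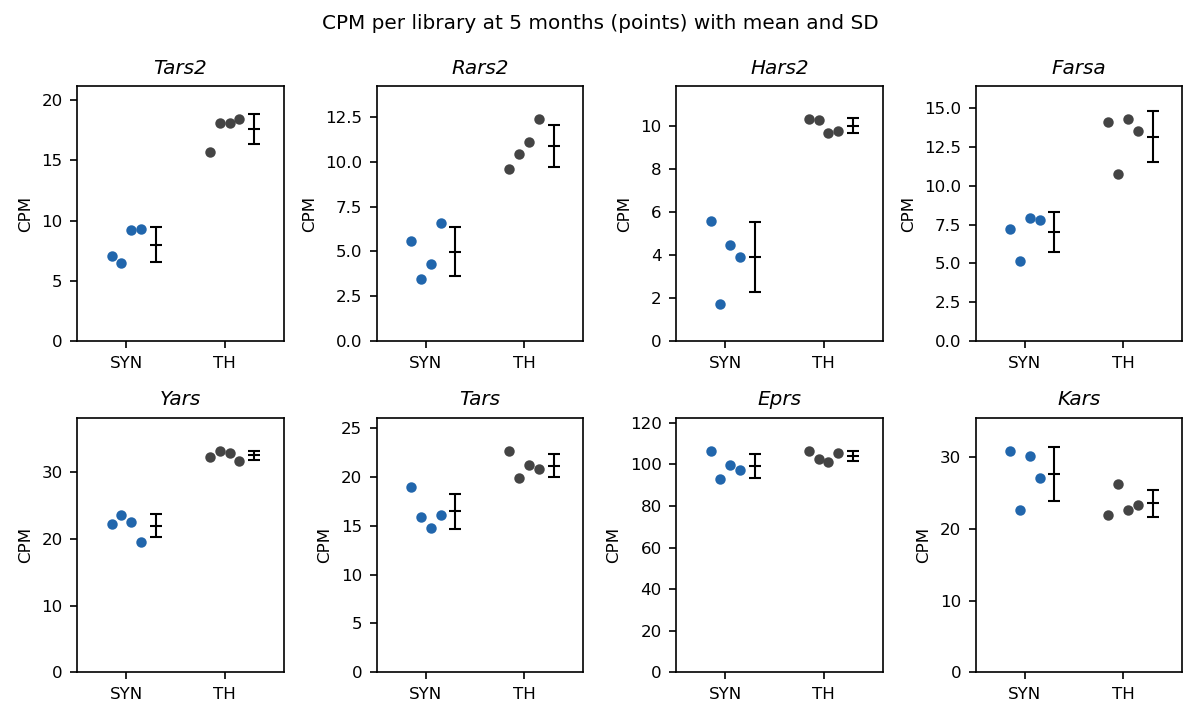
Level in CPM (y axis, from 0) of 8 synthetase genes in each 5 months SYN library (blue) and 5 months TH library (grey), with mean and SD beside the points. In Tars2, Rars2, Hars2, Farsa, Yars and Tars the 4 SYN libraries lie below the 4 TH libraries, and in Eprs and Kars the groups overlap.

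Among cytosolic enzymes outside the multi-synthetase complex, 6 of 13 genes fell and 0 rose, where 25.6% of all genes were lower and 24.5% higher. Yars, the cytosolic tyrosyl enzyme on chr4:129189760-129219607, had 22.1, 23.6, 22.5 and 19.5 CPM in SYN, against 32.3, 33.2, 32.8 and 31.6 CPM in TH. The TH libraries were close to each other and all SYN libraries lay below them. Its log2 fold change was -0.56 (SE 0.0965, edgeR adjusted p = 0.00023). The cytosolic phenylalanyl enzyme is built of alpha and beta subunits, and both genes fell. Farsa, the alpha subunit on chr8:84856989-84869257, had 7.22, 5.16, 7.91 and 7.77 CPM in SYN, against 14.1, 10.8, 14.3 and 13.5 CPM in TH. The 4 SYN libraries of Farsa lay below the lowest TH library, with a log2 fold change of -0.89 (SE 0.171, edgeR adjusted p = 0.000525). Farsb, the beta subunit, averaged 9.92 ± 1.61 CPM in SYN and 15.6 ± 1.22 CPM in TH (SD, n = 4 each), a log2 fold change of -0.64 (SE 0.147, edgeR adjusted p = 0.00222). Sgpp2, on the opposite strand, shares 9.47% of the exonic bases of Farsb. Cars, the cysteinyl enzyme, fell by 0.59 on the log2 scale (edgeR adjusted p = 0.00389).

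Gars and Kars, the genes that serve both compartments, did not share a call. Gars had 41.0, 38.0, 40.0 and 38.4 CPM in SYN, against 51.5, 49.6, 46.9 and 49.6 CPM in TH, without overlap. The log2 fold change of Gars was -0.32 (SE 0.0794, edgeR adjusted p = 0.00392). Kars, the lysyl enzyme, had 30.8, 22.6, 30.1 and 27.0 CPM in SYN, against 21.9, 26.2, 22.7 and 23.3 CPM in TH. The Kars groups overlapped, and its log2 fold change of 0.24 (approximate 95% interval 0.01 to 0.47) had no call (edgeR adjusted p = 0.101). That interval was wholly positive although the unadjusted p of the edgeR test was 0.0576. The 95% intervals given here use a normal approximation and are narrower than this test would give. Without SYN replicate 2, its lowest SYN library, Kars was called at 0.33 (edgeR adjusted p = 0.0235). The same held for Wars, the tryptophanyl enzyme, which averaged 30.3 ± 4.45 CPM in SYN and 24.9 ± 2.85 CPM in TH. Its log2 fold change of 0.30 had an edgeR adjusted p of 0.0604, and of 0.0125 without SYN replicate 2 and 0.0429 without TH replicate 1.

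The 3 threonyl genes differed in what they showed. Beside Tars2, above, the cytosolic Tars had 19.0, 15.9, 14.8 and 16.1 CPM in SYN, against 22.7, 19.9, 21.2 and 20.8 CPM in TH. The groups did not overlap, with the highest SYN library just below the lowest TH library. Its log2 fold change was -0.35 (SE 0.116, edgeR adjusted p = 0.0209), and the call was lost without SYN replicate 3 (adjusted p = 0.0516), TH replicate 1 (0.0663) or TH replicate 3 (0.0543). Tarsl2, on chr7:65644898-65692091, had 23.9, 17.4, 18.0 and 29.3 CPM in SYN, against 23.5, 26.7, 23.3 and 26.4 CPM in TH. Its SYN libraries spread on both sides of TH, and the log2 fold change of -0.16 (95% interval -0.46 to 0.14) had no call (edgeR adjusted p = 0.413). The SYN library with the highest Tarsl2 level was replicate 4, which stood apart in nuclear RNA. Without it the log2 fold change was -0.35 (edgeR adjusted p = 0.0402).

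Of the 7 genes examined here that encode synthetases of the multi-synthetase complex, 3 fell and 0 rose, with a median log2 fold change of -0.06. By the same rule 25.6% of all genes were lower and 24.5% higher. No gene of a methionyl enzyme was among the genes examined, so these counts may not cover the whole complex. Eprs, which joins the glutamyl and prolyl enzymes in a single chain, had 106, 92.7, 99.7 and 97.2 CPM in SYN, against 106, 102, 101 and 105 CPM in TH. The Eprs groups overlapped and differed by little: the log2 fold change was -0.06 with a 95% interval of -0.20 to 0.08 (edgeR adjusted p = 0.528). Rars, Iars and Lars, the arginyl, isoleucyl and leucyl enzymes, fell by 0.44, 0.37 and 0.28 on the log2 scale (edgeR adjusted p = 0.0209, 0.0416 and 0.0228). These calls were close to the threshold. Rars lost its call without TH replicate 2 (0.0582) or TH replicate 4 (0.0588), and Lars lost it without SYN replicate 3 (0.053), TH replicate 1 (0.0626) or TH replicate 3 (0.0515). Iars, whose groups overlapped, lost its call without SYN replicates 1, 2 or 4 (0.0681, 0.122 and 0.0539) or TH replicates 1 or 4 (0.112 and 0.142). Dars, Qars and Kars had no call.

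Cytosolic and mitochondrial enzymes were not separated by their calls in this comparison. The cytosolic median log2 fold change was -0.16 (range -0.89 to 0.30) and the mitochondrial median was -0.45 (range -1.35 to 0.26), a difference of 0.29. Counting Tarsl2 as mitochondrial by its symbol brought that difference to 0.06, so the gap between the medians rested on where a single gene was placed, and without SYN replicate 4 it was 0.17. The mitochondrial genes took 13.7%, 14%, 14.9% and 14.9% of the synthetase counts in SYN libraries, against 15.1%, 16.2%, 16.1% and 16.5% in TH libraries. For 12 amino acids a mitochondrial gene could be set against its cytosolic counterpart in each library. The ratio of mitochondrial to cytosolic CPM lay lower in all SYN libraries than in all TH libraries for histidine and threonine. For threonine, Tars2 averaged 49.5% of the level of Tars in SYN and 83.7% in TH. The ratio lay higher in all SYN libraries for isoleucine and phenylalanine, and the groups overlapped in the other 8 pairs.

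In this comparison other features of the libraries moved with the groups, and their part in the synthetase differences was not tested. The 8 nuclear long noncoding RNAs summed to 1409 to 6618 CPM in SYN and 20295 to 24328 CPM in TH, and 9 endothelial and mural markers summed to 27.8 to 64.0 CPM in SYN and 189 to 272 CPM in TH. Other glial lists were higher in every SYN library, with 8 microglia markers at 168 to 192 CPM in SYN and 75.3 to 78.1 CPM in TH, 8 oligodendrocyte markers at 2303 to 2858 CPM in SYN and 1535 to 1708 CPM in TH, and 6 oligodendrocyte precursor markers at 132 to 149 CPM in SYN and 74.8 to 86.0 CPM in TH. Without SYN replicate 4, the library with the most nuclear RNA in its group, 15 synthetase genes were called lower and 0 higher, 13 of them among the 14 above. In that fit 5191 of all 17967 genes tested were lower and 4199 higher, against 4456 and 4248 of 17374 in the main fit.

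The neighbouring steps of tRNA biology were read from lists beside the synthetases, and each count is to be read against the 25.6% of all genes that were lower and the 24.5% that were higher. Of 51 measured tRNA modification genes, 20 fell, 1 rose and the median log2 fold change was -0.42. The strongest calls were Trmt1l, a relative of the guanosine methyltransferase Trmt1, at -1.27, Pus7, a pseudouridine synthase, at -1.16 and Trit1, which adds isopentenyl groups to adenosine beside the anticodon, at -1.53 (edgeR adjusted p = 2.24e-05, 2.49e-05 and 0.000126). The gene that rose was Tprkb, a subunit of the complex that makes the threonylcarbamoyl modification, at 0.55 (edgeR adjusted p = 0.00213). The counts for tRNA processing were near those shares: of 20 genes, 5 fell, led by Trnt1, which adds the CCA end, at -0.71 (edgeR adjusted p = 0.000869), and 3 rose, led by Hsd17b10, a subunit of mitochondrial RNase P, at 0.68 (edgeR adjusted p = 0.0108). Of 9 genes of editing and special charging, 3 fell and 0 rose, with Pstk, the kinase of the selenocysteine route, at -1.75 and Mtfmt, which formylates the mitochondrial initiator tRNA, at -1.12 (edgeR adjusted p = 2.6e-05 and 0.00598). Of the 3 subunit genes of the mitochondrial glutaminyl-tRNA amidotransferase only Qrsl1 had a call, at -0.75 (edgeR adjusted p = 0.0387), and the 3 scaffold genes of the complex, Aimp1, Aimp2 and Eef1e1, had 0 calls, with a median of -0.45.

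Known ATF4 targets were read as a synthetase list and a list of other genes. Of 10 synthetase genes on the ATF4 list, 5 fell and 0 rose, with a median log2 fold change of -0.23. Of the 10 cytosolic genes off that list, 4 fell and 0 rose, with a median of -0.16. Of 26 measured ATF4 targets that are not synthetases, 8 rose and 0 fell, with a median of 0.25. These counts stand beside 24.5% of all genes higher and 25.6% lower. Psat1, an enzyme of serine synthesis, was at 0.94, Slc3a2, the heavy chain of amino acid transporters, at 0.73, and Ddit3, a stress-induced transcription factor, at 0.77 (edgeR adjusted p = 5.49e-06, 5.56e-05 and 8.58e-05). The difference between these lists was not tested.

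Across ages, the second set of comparisons asked which synthetase genes differ in the SYN fraction between young, adult and old mice. The 12 SYN libraries were fitted together over 15344 genes, so the 3 age contrasts share samples, and 5 months SYN is also the group set against TH above. The genes called in edgeR were all cytosolic. Hars and Yars were lower at both 5 and 19 months than at 3 weeks, and Tarsl2 was lower at 19 months than at either earlier age. No mitochondrial synthetase gene was called in any age contrast in edgeR, whereas DESeq2 called Iars2 lower in 19 months SYN against 5 months SYN (adjusted p = 0.0486). Most mitochondrial genes had lower levels and a larger SE. In 19 months SYN against 3 weeks SYN, Cars2 at 0.48 (SE 0.405) and Aars2 at 0.44 (SE 0.17) had no call. Eprs was called at -0.30 (SE 0.09) in that contrast. The lack of mitochondrial calls therefore does not separate the compartments.

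In 5 months SYN relative to 3 weeks SYN, 2 synthetase genes fell and 0 rose. That is 5.88% lower, where 11.3% of all genes were lower and 13.3% higher by the same rule. None of the synthetase genes was higher at an unadjusted p under 0.05, in edgeR or in DESeq2. In 4 genes all libraries of 5 months lay below those of 3 weeks (12.1% of all genes), and in 1 gene, Wars2, they lay above (10.6% of all genes). Hars, the cytosolic histidyl enzyme, had 37.8, 34.3, 36.4 and 29.8 CPM at 3 weeks, 25.0, 18.5, 18.4 and 20 CPM at 5 months, and 23.2, 22.2, 22.4 and 18.8 CPM at 19 months. Every library of the older ages lay below every library of 3 weeks. The log2 fold change of Hars was -0.74 in 5 months SYN against 3 weeks SYN (SE 0.124, edgeR adjusted p = 7.48e-05) and -0.67 in 19 months SYN against 3 weeks SYN (SE 0.125, edgeR adjusted p = 0.000296). In 5 months TH, Hars had 21.0 to 24.4 CPM, a range that overlapped 5 months SYN (log2 fold change -0.16, edgeR adjusted p = 0.293). The bases shared with Hars2 are 9.81% of the exonic length of Hars, and Hars2 itself had log2 fold changes of -0.33 and -0.12 in the same age contrasts with no call.

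Yars had 34.3, 29.7, 33.0 and 32.3 CPM at 3 weeks, 22.1, 23.6, 22.5 and 19.5 CPM at 5 months, and 25.5, 21.1, 21.3 and 21.2 CPM at 19 months. Both older groups lay wholly below 3 weeks and overlapped each other. Its log2 fold change was -0.55 in 5 months SYN against 3 weeks SYN (SE 0.114, edgeR adjusted p = 0.000797) and -0.53 in 19 months SYN against 3 weeks SYN (SE 0.114, edgeR adjusted p = 0.00128). Between 19 and 5 months the log2 fold change was 0.01 in Yars (95% interval -0.21 to 0.24) and 0.07 in Hars (95% interval -0.18 to 0.32), with no call.

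**Figure D3:**
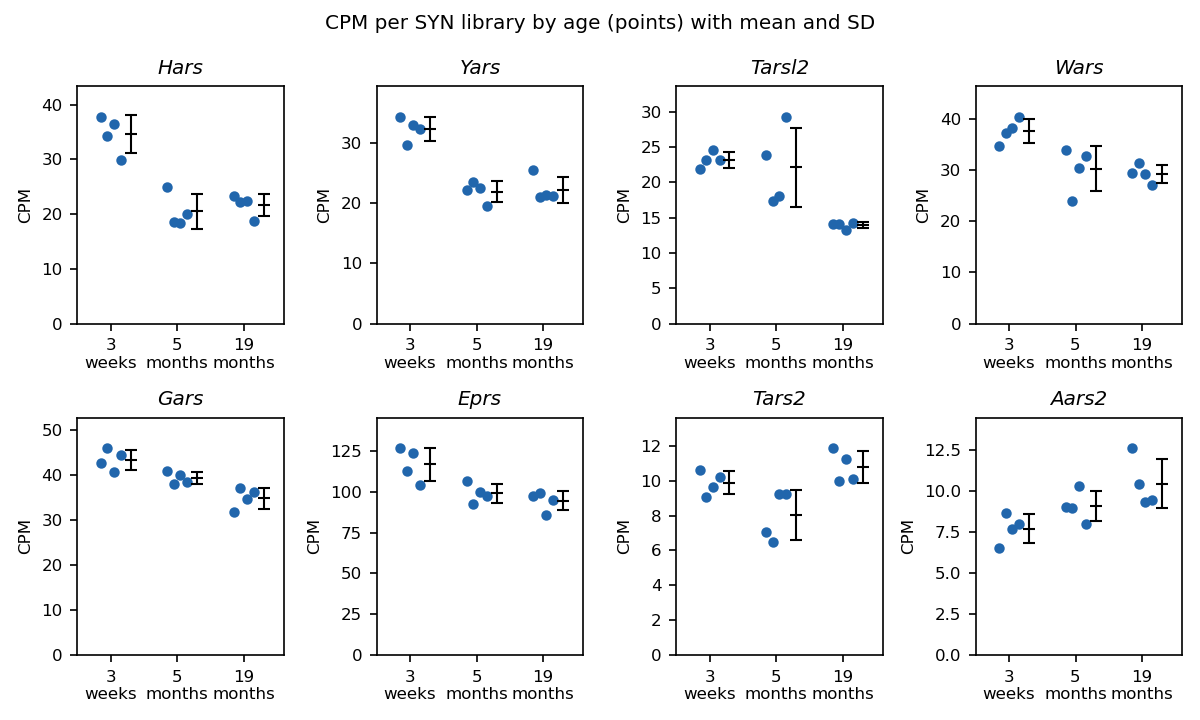
Level in CPM (y axis, from 0) of 8 synthetase genes in each SYN library at 3 weeks, 5 months and 19 months, with mean and SD beside the points. Hars and Yars lie lower in all libraries of 5 and 19 months than at 3 weeks, Tarsl2 lies at 13.3 to 14.3 CPM in all 19 months libraries and above 17 CPM in all others, and the mitochondrial Tars2 and Aars2 had no call.

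Tarsl2 was the only synthetase gene called in 19 months SYN relative to 5 months SYN. The count was 1 lower and 0 higher of 34, where 0.169% of all genes were lower and 0.13% higher. At an unadjusted p under 0.05, edgeR had 5 synthetase genes lower and 1 higher, and DESeq2 also called 0 higher, with 1 at that unadjusted level. In 4 genes, Tarsl2, Iars2, Gars and Aars, all libraries of 19 months lay below those of 5 months (4.53% of all genes), and in 2 genes, Farsb and Tars2, they lay above (3.53% of all genes). Tarsl2 had 21.9, 23.2, 24.6 and 23.2 CPM at 3 weeks, 23.9, 17.4, 18.0 and 29.3 CPM at 5 months, and 14.1, 14.1, 13.3 and 14.3 CPM at 19 months. The 19 months libraries were close together and below every other SYN library, whereas those of 5 months were widely spread. Its log2 fold change was -0.68 in 19 months SYN against 5 months SYN (SE 0.148, edgeR adjusted p = 0.0374). That call was lost without any 1 of 8 libraries: each of the 4 at 19 months, replicates 1, 3 and 4 at 5 months and replicate 3 at 3 weeks, with adjusted p between 0.0592 and 0.153. Without both libraries that stood apart it was -0.51 (edgeR adjusted p = 0.213). Against 3 weeks SYN, 19 months SYN had a Tarsl2 log2 fold change of -0.73 (SE 0.148, edgeR adjusted p = 0.000706), which stayed below 0.05 in all 12 fits with a library left out (adjusted p 2e-04 to 0.00401). Between 5 months and 3 weeks it was -0.05 (95% interval -0.33 to 0.23).

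In 19 months SYN relative to 3 weeks SYN, 6 synthetase genes fell and 0 rose, and all 6 were cytosolic. That is 17.6% lower, where 9.44% of all genes were lower and 10.0% higher. At an unadjusted p under 0.05, 1 synthetase gene was higher in edgeR and 1 in DESeq2, which called 0. In 9 genes all libraries of 19 months lay below those of 3 weeks (11.8% of all genes), and in 2, Aars2 and Farsb, they lay above (11.1% of all genes). Beside Hars, Tarsl2 and Yars, the genes that fell were Wars, Gars and Eprs, each by a smaller amount. Wars had 34.7, 37.2, 38.2 and 40.4 CPM at 3 weeks, 34, 24.0, 30.4 and 32.8 CPM at 5 months, and 29.5, 31.3, 29.2 and 27.1 CPM at 19 months. Gars had 42.7, 46.0, 40.7 and 44.5 CPM at 3 weeks and 31.7, 37.1, 34.7 and 36.2 CPM at 19 months, with the 5 months values given above. Eprs had 127, 113, 124 and 104 CPM at 3 weeks and 97.7, 99.0, 86.0 and 95.3 CPM at 19 months. In all 3 genes the libraries of 19 months lay below those of 3 weeks without overlap. The log2 fold changes in 19 months SYN against 3 weeks SYN were -0.36 in Wars, -0.31 in Gars and -0.30 in Eprs (SE 0.114, 0.0977 and 0.09; edgeR adjusted p = 0.0279, 0.0253 and 0.0185).

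These smaller calls were sensitive to single libraries. Wars lost its call in 6 of 12 fits with a library left out, each replicate at 3 weeks except replicate 1 and at 19 months except replicate 2, with adjusted p up to 0.0873. Gars lost it without 3 weeks replicates 2 or 4 (0.078 and 0.0561) or 19 months replicates 1 or 3 (0.0866 and 0.0576), and Eprs without 3 weeks replicate 3 (0.0719) or 19 months replicate 3 (0.0775). Leaving out 19 months replicate 3 left 3 synthetase genes lower, namely Hars, Yars and Tarsl2. In that fit 1123 of all 15705 genes tested were lower and 1139 higher. Without both libraries that stood apart, 5 genes were lower, 4 of them among the 6 above: Wars (0.0522) and Gars (0.0896) lost their calls and Tars gained one (0.0479). Over all 15470 genes tested without both, 1336 were lower and 1602 higher.

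**Figure D4:**
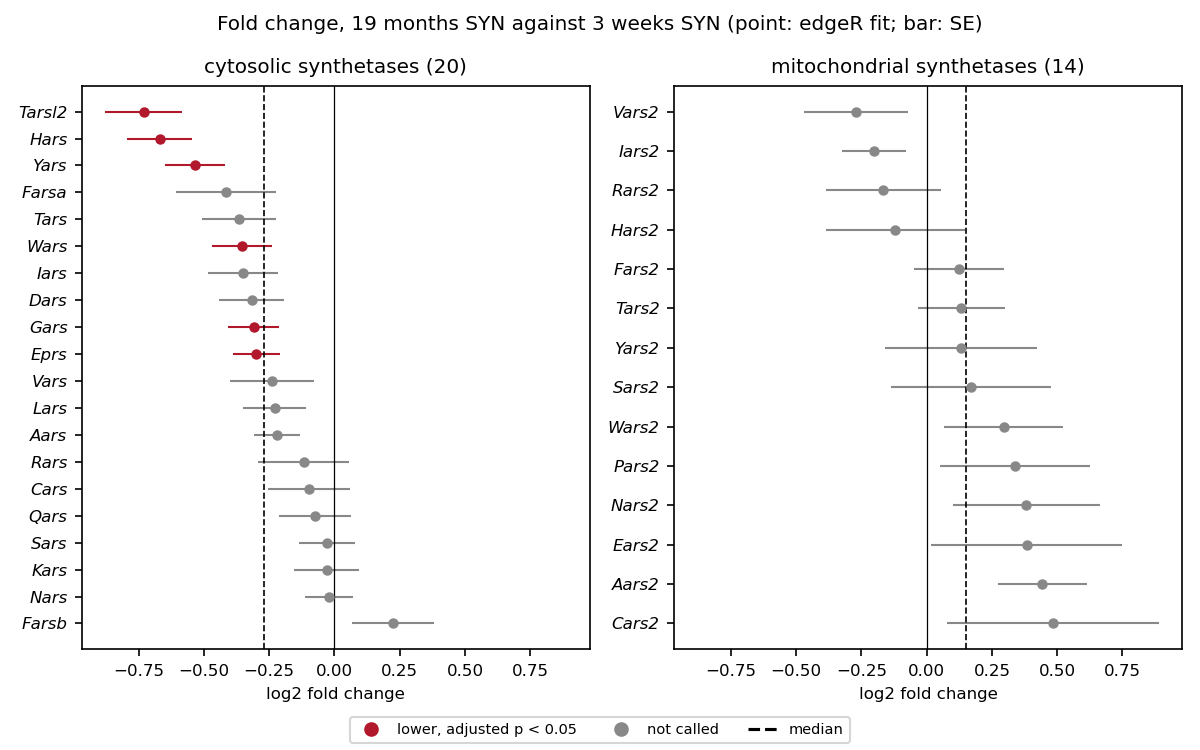
Log2 fold change (x axis) of each of the 34 synthetase genes in 19 months SYN against 3 weeks SYN, with cytosolic genes at left and mitochondrial genes at right; points are edgeR estimates, bars are SE, red marks an adjusted p under 0.05 and the dashed line is the median of each panel (-0.27 cytosolic, 0.15 mitochondrial). The 6 coloured points are all cytosolic, and 19 of 20 cytosolic estimates lie left of 0.

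Signs of the estimates leaned in opposite directions by compartment in this contrast. The log2 fold change was below 0 in 19 of 20 cytosolic genes, Farsb being the exception at 0.22, and above 0 in 10 of 14 mitochondrial genes. Of all 15344 genes tested, 7627 were below 0 and 7717 above. The cytosolic median was -0.27 and the mitochondrial median 0.15, beside 0.00 over all genes tested. With Tarsl2 counted as mitochondrial the mitochondrial median was 0.13, and without Gars and Kars the cytosolic median was -0.27. The difference of medians stayed between -0.54 and -0.36 when each library was left out in turn. In 5 months SYN against 3 weeks SYN the medians were -0.14 cytosolic and 0.23 mitochondrial, and in 19 months SYN against 5 months SYN they were -0.10 cytosolic and 0.06 mitochondrial. In that last contrast the mitochondrial median was -0.06 without 5 months replicate 2, and the difference of medians, -0.16, was -0.09 without 19 months replicate 3 and -0.10 without 5 months replicates 2 or 3. Most single estimates behind these medians had no call. Aars2, the mitochondrial alanyl enzyme, was the nearest to one among mitochondrial genes, with 7.69 ± 0.877 CPM at 3 weeks, 9.07 ± 0.930 CPM at 5 months and 10.4 ± 1.51 CPM at 19 months (SD, n = 4 each). Its log2 fold change in 19 months SYN against 3 weeks SYN was 0.44 (95% interval 0.11 to 0.78, edgeR adjusted p = 0.0668).

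The share of synthetase counts from mitochondrial genes, computed from the same counts, was 12.5%, 12.1%, 12% and 13.0% at 3 weeks, 13.7%, 14%, 14.9% and 14.9% at 5 months, and 16.2%, 13.4%, 15.3% and 14.6% at 19 months. All libraries of 5 and 19 months lay above all libraries of 3 weeks, and the older groups overlapped. The highest share at 19 months was in replicate 1, the library with the most mitochondrial ribosomal RNA in its group. Summed over all 34 genes, the synthetases took 750 to 798 CPM at 3 weeks, 665 to 773 CPM at 5 months and 651 to 695 CPM at 19 months. The cytosolic genes took 659 to 702, 572 to 667 and 551 to 582 CPM in the same order. The mitochondrial genes took 91.0 to 101, 92.8 to 110 and 89.7 to 113 CPM, which overlapped between all ages. The higher share at 19 months than at 3 weeks thus went with lower cytosolic sums.

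**Figure D5:**
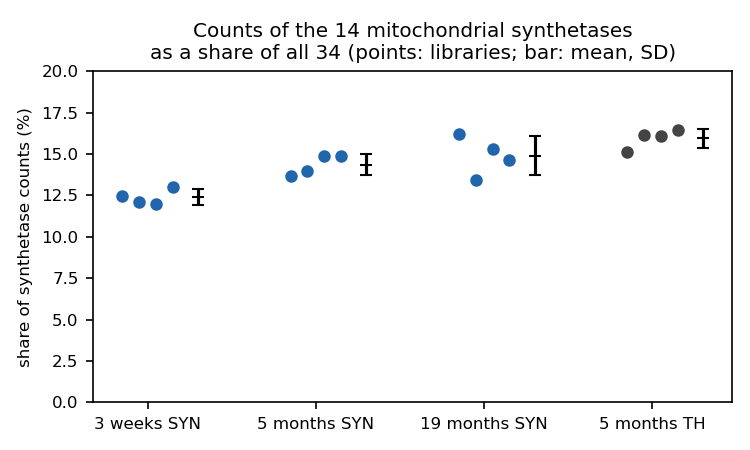
Share of synthetase counts that came from the 14 mitochondrial synthetase genes (y axis, percent, from 0) in each library, by group, with mean and SD beside the points. Libraries of 3 weeks SYN lie at 12% to 13.0%, below all other libraries, and 5 months TH libraries lie at 15.1% to 16.5%.

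Other genes with the full set of values did not pass the test between ages. Kars had 29.0, 23.6, 23.6 and 24.4 CPM at 3 weeks and 26.8, 25.6, 22.8 and 22.9 CPM at 19 months, with a log2 fold change of -0.03 (95% interval -0.27 to 0.21) in 19 months SYN against 3 weeks SYN. Tars had 19.8, 19.2, 18.1 and 23.8 CPM at 3 weeks and 18.2, 13.2, 14 and 17.3 CPM at 19 months. Those groups of Tars overlapped by a narrow margin, and the log2 fold change was -0.36 (95% interval -0.64 to -0.09, edgeR adjusted p = 0.0717). Tars2 had 10.6, 9.09, 9.65 and 10.2 CPM at 3 weeks and 11.8, 9.98, 11.2 and 10.1 CPM at 19 months. Its lowest group was 5 months, and all 4 libraries of 19 months lay above all 4 of 5 months, with a log2 fold change of 0.41 that had no call (95% interval 0.08 to 0.74, edgeR adjusted p = 0.265). Nars, the most abundant per kilobase, had an interval of -0.20 to 0.16 in 19 months SYN against 3 weeks SYN.

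Marker sums moved with age as well, and their part in the age differences was not tested. The 8 oligodendrocyte markers summed to 7397 to 10453 CPM at 3 weeks, 2303 to 2858 CPM at 5 months and 2298 to 3220 CPM at 19 months, the same split of ages as in Hars and Yars. The 6 oligodendrocyte precursor markers gave 337 to 389, 132 to 149 and 134 to 167 CPM in the same order of ages. The 8 microglia markers gave 119 to 174, 168 to 192 and 197 to 306 CPM, and the nuclear long noncoding RNAs 676 to 990, 1409 to 6618 and 1470 to 2309 CPM. The neuronal synapse markers summed to 10638 to 11455, 11839 to 13925 and 10462 to 12826 CPM, so that 5 months lay above 3 weeks without overlap. Mitochondrial ribosomal RNA took 42.6% to 51.7% of counts at 3 weeks, 36.1% to 45.3% at 5 months and, apart from replicate 1, 32.9% to 33.6% at 19 months.

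Few of the other tRNA genes were called between ages. In 19 months SYN against 5 months SYN, 0 genes of the 6 lists were called in edgeR in either direction, where 0.169% of all genes were lower and 0.13% higher. In 5 months SYN against 3 weeks SYN, Aimp1, a scaffold of the complex, fell by 0.47 (edgeR adjusted p = 0.0264), as did Pop4, a subunit of RNase P, by 0.53 (adjusted p = 0.028), Pus7 by 0.70 (adjusted p = 0.00789) and Ptrh2, a peptidyl-tRNA hydrolase, by 0.89 (adjusted p = 0.0377) on the log2 scale. Cdkal1, a methylthiotransferase acting on tRNA, rose by 0.65 (edgeR adjusted p = 0.0069). By list, 1 of 3 scaffold genes, 1 of 20 processing genes and 1 of 8 genes of editing and special charging fell. Of 50 modification genes, 1 fell and 1 rose. Of all genes, 11.3% were lower and 13.3% higher in that contrast. In 19 months SYN against 3 weeks SYN, Pop4 and Trmt12, a wybutosine enzyme, fell by 0.66 and 0.94, and Rpp25, a protein of RNase P and MRP, rose by 1.00 (edgeR adjusted p = 0.01, 0.0207 and 0.00957). By list, 1 of 20 processing genes fell and 1 rose, and 1 of 50 modification genes fell. Of all genes, 9.44% were lower and 10.0% higher in that contrast. Of 26 ATF4 targets that are not synthetases, 3 rose and 3 fell in 5 months SYN against 3 weeks SYN (13.3% and 11.3% of all genes), and 4 rose and 1 fell in 19 months SYN against 3 weeks SYN (10.0% and 9.44% of all genes). Ddit3 was at 0.96 in the contrast at 5 months and 0.70 in that at 19 months (edgeR adjusted p = 7.76e-06 and 0.000495). Of the 10 synthetase genes on the ATF4 list 4 fell at 19 months against 3 weeks, Yars, Wars, Gars and Eprs, and 0 rose. Of the 10 cytosolic genes off that list, 2 fell and 0 rose, and the medians were -0.30 on the list and -0.23 off it. The same contrast had 9.44% of all genes lower and 10.0% higher. The calls of Wars, Gars and Eprs were sensitive to single libraries, as given above.

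The authors also deposited tests of splicing between ages in SYN, by intron clusters (LeafCutter) and by single junctions (DIEGO). These tables call the ages young, adult and old, taken here as 3 weeks, 5 months and 19 months in that order. In the authors' deposited LeafCutter table, 8 synthetase genes had 9 clusters, of which 6 clusters, in Eprs, Nars, Sars, Aars and Kars, were tested. In the authors' deposited table, 0 of these 6 had an adjusted p under 0.05 in any of the 3 age contrasts, where 4.81% of all clusters did in 19 months SYN against 3 weeks SYN, 6.61% in 5 months against 3 weeks and 0.768% in 19 months against 5 months. At an unadjusted p under 0.05, the authors' deposited table had 2, 1 and 1 of the 6 in those contrasts. The Kars cluster covers an exon of 180 bases, chr8:112008207-112008386 on GRCm38, that 3 of 6 annotated Kars transcripts hold. In the human gene, an alternative exon near the 5′ end gives the mitochondrial lysyl enzyme when included and the cytosolic one when skipped, and whether the mouse exon corresponds to it was not examined here. In the authors' deposited table the junction that skips the exon, chr8:112005789-112011209, took a fraction of 0.597 of its cluster at 19 months and 0.437 at 3 weeks (the authors' adjusted p = 0.0993, no call). In the contrast of 5 months with 3 weeks, the authors' deposited table has 0.564 and 0.431 for that junction (the authors' adjusted p = 0.405).

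The smallest adjusted p of a synthetase gene in the authors' deposited LeafCutter table was 0.0604, for a cluster at the 5′ end of Aars in 19 months against 3 weeks. There, the junction chr8:111034264-111036908 took a fraction of 0.791 at 19 months and 0.891 at 3 weeks in the authors' deposited table. In the authors' deposited DIEGO table, 4 of 414 synthetase junctions (0.966%) had a q under 0.05 in 19 months against 3 weeks, where 0.69% of all junctions did. For 5 months against 3 weeks the authors' deposited table gave 10 of 432 (2.31%, against 1.48% of all junctions), and for 19 months against 5 months 0 of 380. The column that marks significance in the authors' deposited DIEGO tables said no for all of these junctions.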

How the data were processed

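The authors deposited raw counts per gene for 16 libraries. Per the submitters' processing notes, the tools were bcl2fastq 2.20.0.422, cutadapt 1.18, Trimmomatic 0.38 and featureCounts from Subread, with build GRCm38.p6, and the column names speak of unique alignments. Per the labels' protocols, libraries were made from 10 ng of RNA with a stranded total RNA kit that depletes 18S and 28S rRNA. An aligner, an annotation release and a strand setting were not given in the sources used here. The authors' deposited splicing tables hold p-values and q-values, usage fractions and effect scores, per the file headers. The authors' deposited table also lists an exonic length per gene.

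Counts were tested with edgeR 4.0.16 (quasi-likelihood F test, robust, filterByExpr by group, TMM scaling) in R 4.3.3, with SYN and TH fitted on 8 libraries and the ages on 12. SE is the log2 fold change divided by the square root of F, and intervals are 1.96 SE on each side. These intervals, called 95% in the text, use a normal multiplier and not the degrees of freedom of the F test. They are therefore too narrow for 95% coverage under that test. An interval can exclude no change where the unadjusted p is above 0.05, so calls rest on the test alone. CPM per library uses TMM over all 16 libraries, and all fold changes come from each comparison's own scaling. The code was tested on simulated data. Depth sets the precision of low genes. Nothing says that libraries beyond the SYN ages came from separate animals, so p-values there measure the spread between libraries. SYN and TH count columns share preparation numbers in their names and may come from the same cortices, which no label states, so the main fit treats the 8 libraries as unpaired. Within each group no 2 libraries were copies of each other, and pairs across groups were not checked for this.

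The 34 members, the 6 gene lists and the markers were chosen with earlier results of these data known. All members enter the counts and medians, but not every member is named in each comparison. Vars, the cytosolic valyl enzyme, is not described above. It had no call at 0.14 in SYN against TH or at -0.40 in 19 months against 5 months. Full values are given for the 4 called members with the smallest adjusted p per direction and comparison, and for Gars, Kars, Eprs, Tars, Tars2 and Tarsl2. From each list, up to 3 called genes per direction are named. Genes described beyond this rule were chosen after their values were seen. Alternatives were other scalings, filters, fits, classes of Tarsl2, Gars and Kars, the replicate block, DESeq2 1.42.0 and leaving out libraries. Promoter sequences are from RefSeq. Some sequence is not reported here.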

Additional observations from a re-analysis of the deposited data

Results flagged for a closer look

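A level was taken as standing apart when the gap between the highest or lowest of the 4 libraries and its nearest neighbour, divided by the range of the group, exceeded 0.829 (Dixon's test). Over the 34 genes and 4 groups this was asked 136 times, and 9 groups were marked, where chance marks about 1 in 20. In the 19 months SYN group, Aars was low in replicate 1 at 59.3 CPM, with the others at 63.7 to 64.2, and Yars was high in the same replicate at 25.5 CPM, with the others at 21.1 to 21.3. Replicate 2 of that group was low in Cars2 at 1.04 CPM (15 counts), with the others at 2.48 to 2.73, and high in Rars at 12.1 CPM, with the others at 10.4 to 10.5. Replicate 3 was low in Farsa at 5.16 CPM, with the others at 7.47 to 7.62, and high in Iars at 20.9 CPM, with the others at 17.8 to 18.3. Elsewhere, Dars was high in 5 months SYN replicate 3 at 29.1 CPM (others 22.1 to 23.2), Kars was high in 3 weeks SYN replicate 1 at 29.0 CPM (others 23.6 to 24.4), and Tars2 was low in 5 months TH replicate 1 at 15.7 CPM (others 18.1 to 18.4). Of the marked genes, Yars and Tars2 had a call in a comparison of the marked group, and in both the marked library lay nearer to the other group.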

How the results depend on the processing

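No called fold change of a synthetase gene changed direction under any alternative run, and the counts of genes called lower in SYN against TH held within 1.5 times (11 to 15 when each library was left out). In SYN against TH, the cytosolic minus mitochondrial median moved to 0.0614 with Tarsl2 counted by its symbol and was 0.17 to 0.31 when each library was left out, and the count of genes called higher was 1 (Wars) with all 16 libraries in the fit and 0 to 2 when each library was left out. Upper-quartile scaling moved the median of all genes to -0.19 and called 20 synthetase genes lower, with 3367 of all genes higher and 5525 lower, against 4248 and 4456 with TMM. In 19 months against 5 months, 2 genes were lower with DESeq2 (Tarsl2 and Iars2), which gave an adjusted p for 20 of 34 genes, 0 without both libraries that stood apart, and 0 to 1 when each library was left out, with the difference of medians between -0.23 and -0.09. DESeq2 called 213 of 7494 genes lower in that contrast and 98 higher. In 5 months against 3 weeks, 4 were lower with all 16 libraries and 2 to 4 when each library was left out, with the difference of medians between -0.38 and -0.25. With all 16 libraries, 1939 of 17828 genes were lower in that contrast and 2188 higher. In 19 months against 3 weeks, 3 to 7 were lower when each library was left out. The cause of these shifts was not tested. With the replicate block, 15 genes were lower in SYN against TH (Ears2 added, adjusted p = 0.0372), 3 in 5 months against 3 weeks (Wars, 0.0456), 7 in 19 months against 3 weeks (Tars, 0.045) and 1 in 19 months against 5 months, where calls over all genes were 124 higher and 140 lower with the block and 20 and 26 without. Over all 17374 genes, the block gave 4152 higher and 4402 lower in SYN against TH. Over all 15344 genes, it gave 2144 higher and 1926 lower in 5 months against 3 weeks. In 19 months against 3 weeks it gave 1752 higher and 1642 lower. Correlations of deviations between same-numbered SYN and TH libraries were 0.213, 0.0374, 0.0594 and 0.203, not all over 0.1, and SYN replicate 2 correlated better with TH replicate 3 (0.128). Between ages no label ties the numbers, own-number correlations were -0.0412 to 0.35, and replicate 1 matched its own number best in each pair of ages. Cars2, Ears2, Sars2 and Pars2 are limited by low counts.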
